A study of Homo sapiens with 6 samples.

Results

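The 10 genes described here encode the enzymes of serine synthesis and of the folate one-carbon cycle. They were chosen by name (PHGDH, PSAT1, PSPH, SHMT1, SHMT2, MTHFD1, MTHFD1L, MTHFD2, MTHFD2L and ALDH1L2) from the 58735 genes of the deposited table, and all 10 were found. RNA had been sequenced in 6 libraries of Hep3B, an established human liver cancer line. By their labels 3 of them carry a short hairpin RNA (shRNA) against HYOU1, a large chaperone of the endoplasmic reticulum, and 3 carry a control shRNA. No other treatment or allele is named for either group. The labels do not give the hairpin sequence or say how many hairpins or clones were used. Nor do they say whether the replicates were separate cultures, so the spread between libraries may be technical. The genes were listed with earlier results of this comparison known. Differences of the 10 genes between the groups are therefore given as a description, with standard errors and no p-values.

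Serine is made in the cytosol from an intermediate of glycolysis by phosphoglycerate dehydrogenase (PHGDH), phosphoserine aminotransferase (PSAT1) and phosphoserine phosphatase (PSPH), in that order. Serine hydroxymethyltransferase then splits serine into glycine and a carbon unit carried on tetrahydrofolate, in the cytosol (SHMT1) or in mitochondria (SHMT2). The carbon unit is oxidised to formate by MTHFD2 or MTHFD2L and MTHFD1L in mitochondria, and MTHFD1 handles the same steps in the cytosol. ALDH1L2 oxidises the mitochondrial formyl group to carbon dioxide and makes NADPH. The carbon units feed purine, thymidylate and methionine synthesis. Several of these genes are known targets of ATF4, the transcription factor of the integrated stress response.

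In cells with HYOU1 shRNA, PSAT1 and PSPH were lower and MTHFD2 was higher than in cells with control shRNA. PSAT1 stood at 0.202 of its control level, PSPH at 0.602 and MTHFD2 at 1.80. These 3 were the members called among the 9 that were tested, 1 higher and 2 lower, the threshold for a call being a Benjamini-Hochberg adjusted p of 0.05 in limma over the 12448 genes whose mean reached 1 FPKM (fragments per kilobase, scaled by the authors for library size). The background was 12.3% of tested genes, with 6.6% higher and 5.66% lower, and the members' count is not read against it because they were chosen with this comparison known. The groups did not overlap in 5 of the 9 members, 2 higher and 3 lower, against 44.4% of all tested genes (23.8% higher and 20.6% lower). In bulk RNA, a lower level in every cell and fewer cells with the transcript cannot be told apart.

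Facts of the whole series bear on these values. The libraries held 16893091 to 18233240 fragments. HYOU1 itself was at 2.35, 2.32 and 2.37 FPKM with HYOU1 shRNA, against 37.6, 58.2 and 59.5 FPKM with control shRNA, so each library matched its label. Most markers of the labelled cell type were low. Of 13 such genes 1, RBP4, reached a mean of 1 FPKM, and ALB, APOB and TTR were listed at 0 in every library. In the library where it would weigh most, a count of 3 fragments of ALB equals 0.0520 FPKM. The summed level of the 13 was 6.30 to 7.38 FPKM with HYOU1 shRNA and 9.13 to 12.4 FPKM with control shRNA. Of 9 hepatocyte factors and enzymes, HNF4A, CEBPA and CPS1 reached 1 FPKM and G6PC was at 0. The summed level of this list was 56.9 to 58.1 FPKM with HYOU1 shRNA and 182 to 228 FPKM with control shRNA, and most of it was CPS1, at 49.2, 48.5 and 47.0 FPKM against 223, 173 and 175 FPKM. CEBPA was at 7.35, 7.99 and 8.39 FPKM with HYOU1 shRNA and at 3.76, 6.96 and 7.20 FPKM with control shRNA. Of 5 biliary markers 4 reached 1 FPKM, at a summed 63.6 to 67.9 FPKM with HYOU1 shRNA and 51.9 to 58.5 FPKM with control shRNA. Of 8 fibroblast markers 4 did, at 10.5 to 11.1 FPKM and 10.4 to 12.4 FPKM, with COL1A2 at 0. None of 6 immune markers did (0.0289 to 0.182 FPKM summed with HYOU1 shRNA and 0.192 to 0.490 FPKM with control shRNA), with PTPRC, CD3E, LYZ and MS4A1 at 0. None of 4 endothelial markers did (0.179 to 0.188 FPKM and 0.254 to 0.276 FPKM), with KDR at 0. The sums hid differences between genes. Most of the biliary sum was KRT7, at 50.8, 53.2 and 56.8 FPKM with HYOU1 shRNA and 30.6, 44.2 and 48.1 FPKM with control shRNA. EPCAM was also higher, and KRT19 and SOX9 overlapped. Among the fibroblast genes that reached 1 FPKM, COL1A1 was higher with HYOU1 shRNA (5.61 to 6.83 against 2.33 to 3.27 FPKM). DCN (1.45 to 1.81 against 3.82 to 4.49 FPKM) and PDGFRB were lower, and ACTA2 overlapped. The part of all these marker lists in the results was not tested.

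Control replicate 1 differed from the other controls in a trend over GC content. Against the mean of control replicates 2 and 3, its log2 values were shifted by a median of 0.48 in the bin of genes (of 10 equal bins by GC content) that holds PSAT1, MTHFD2 and ALDH1L2 (41.4% to 42.3% GC). In the bins that hold PHGDH and SHMT1 (52.3% and 52.6% GC) and SHMT2 (57.0% GC) the medians were -0.30 and -0.52. The shifts of these 6 members had the signs of their bins. MTHFD1L (51.9% GC) did not follow its bin, being higher by 0.085 where the bin's median was -0.0995. Control replicate 1 was lower by 0.68, 0.67 and 0.54 on the log2 scale for PHGDH, SHMT1 and SHMT2, and higher by 0.28, 0.53 and 0.64 for PSAT1, MTHFD2 and ALDH1L2. Values are therefore also given without it and after a correction of the GC trend.

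Upstream sequences are shown for a member that was called and one that was not in the serine branch (PSAT1 and PHGDH) and in the mitochondrial folate branch (MTHFD2 and MTHFD1L), among the members with a window. Each runs 5′ to 3′ over the 250 bases before the RefSeq transcript start (GRCh38.p14). Capitals mark matches, on either strand, to CCAAT (the core of the NF-Y element), to CACGTG (an E-box, which MYC can bind, and which is the same on both strands) and to TGATGNAA (the composite element that ATF4 binds with C/EBP proteins). The matches shown do not overlap each other.
PSAT1 (chr9:78296875-78297124, + strand): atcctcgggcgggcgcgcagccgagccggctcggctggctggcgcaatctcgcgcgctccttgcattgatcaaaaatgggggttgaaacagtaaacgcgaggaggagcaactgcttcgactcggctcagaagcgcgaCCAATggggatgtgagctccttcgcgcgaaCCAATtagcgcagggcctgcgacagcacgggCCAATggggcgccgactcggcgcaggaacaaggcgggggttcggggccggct
PHGDH (chr1:119711684-119711933, + strand): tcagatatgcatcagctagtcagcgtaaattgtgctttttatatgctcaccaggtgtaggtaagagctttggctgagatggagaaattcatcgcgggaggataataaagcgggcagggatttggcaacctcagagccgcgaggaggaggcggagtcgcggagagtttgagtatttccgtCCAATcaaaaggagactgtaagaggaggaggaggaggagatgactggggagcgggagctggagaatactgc
MTHFD2 (chr2:74198365-74198614, + strand): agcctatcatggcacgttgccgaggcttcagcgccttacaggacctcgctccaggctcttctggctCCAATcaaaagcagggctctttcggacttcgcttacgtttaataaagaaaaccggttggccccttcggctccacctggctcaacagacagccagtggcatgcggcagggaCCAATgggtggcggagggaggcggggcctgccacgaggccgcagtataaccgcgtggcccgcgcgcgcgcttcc
MTHFD1L (chr6:150866236-150866485, + strand): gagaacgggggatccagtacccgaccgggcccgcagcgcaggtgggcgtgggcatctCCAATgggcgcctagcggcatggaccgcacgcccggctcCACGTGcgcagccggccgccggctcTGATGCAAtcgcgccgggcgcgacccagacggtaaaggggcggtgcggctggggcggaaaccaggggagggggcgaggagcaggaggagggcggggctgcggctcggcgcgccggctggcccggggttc
PSAT1 held 3 CCAAT matches, MTHFD2 held 2 and PHGDH 1. MTHFD1L held 1 match to each of the 3 motifs, and its TGATGNAA match was the only such match among the 7 members with a window in the table, in 2 of its 4 windows. CCAAT stood in 8 of the 11 windows of these members, several of which belong to the same gene. The MTHFD1L windows that hold CCAAT overlap and count the same site more than once. By gene, 6 of the 7 members held a match. CCAAT stood in 32.0% of all 35116 windows and in 32.9% of the windows of tested genes. The 8 windows are not read against these shares, because they are not separate sites. TGATGNAA stood in 3.14% of all windows and in 1.49% of those of tested genes, and CACGTG in 6.34% and 8.54%. A match describes the letters of the window and no binding was measured.

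**Figure D1:**
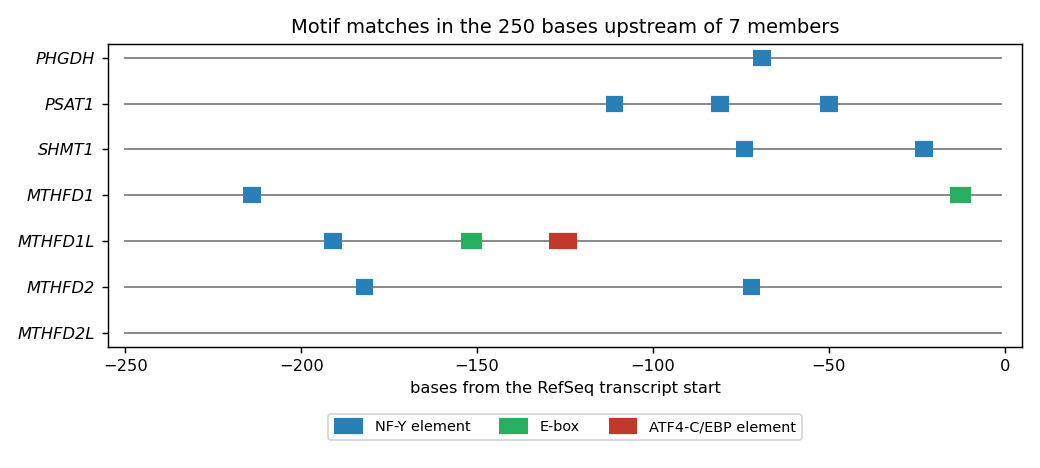
Positions of motif matches in the 250 bases upstream of the RefSeq transcript start of 7 members, 1 window each (horizontal axis, bases from the start; boxes, matches). CCAAT matches are drawn as NF-Y elements and stand upstream of every gene but MTHFD2L, and the single ATF4-C/EBP match lies upstream of MTHFD1L.

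The serine branch split between its steps. PHGDH, the entry enzyme (ENSG00000092621, chromosome 1, 119648411 to 119744226 on GRCh38, as are all coordinates here), was at 34.3, 36.9 and 38.7 FPKM with HYOU1 shRNA and at 19.7, 30.2 and 32.8 FPKM with control shRNA (replicates 1, 2 and 3 of each group, in that order throughout). All HYOU1 shRNA libraries lay above all controls, by the smallest margin over control replicate 3. Its log2 difference was 0.44 with a standard error of 0.21, and it was not called. Without control replicate 1 it was 0.21 with a standard error of 0.074, and called. The GC correction gave 0.37 with a standard error of 0.13, which was not called.

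PSAT1, which makes phosphoserine with an amino group from glutamate (ENSG00000135069, chromosome 9, 78297143 to 78330093), was at 14.8, 13.4 and 15.3 FPKM with HYOU1 shRNA and at 81.2, 67.4 and 66.7 FPKM with control shRNA. All HYOU1 shRNA libraries lay below the lowest control, and the highest control was replicate 1. The values rest on 538 to 585 fragments with HYOU1 shRNA and on 2621 to 3034 with control shRNA. It averaged 14.5 ± 0.992 FPKM with HYOU1 shRNA and 71.8 ± 8.19 FPKM with control shRNA (SD, n = 3 each), a log2 difference of -2.30 with a standard error of 0.13. This was the largest difference among the members, and was -2.17 after the GC correction. The gene was called in every fit tried, including that without any 1 library.

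PSPH, the last step (ENSG00000146733, chromosome 7, 56011051 to 56051604), was at 7.20, 7.25 and 7.39 FPKM with HYOU1 shRNA and at 11.96, 11.75 and 12.6 FPKM with control shRNA. The groups were narrow and did not overlap. Its log2 difference was -0.72 with a standard error of 0.11, and -0.73 both with GC correction and with control replicate 1 left out. The call was lost without HYOU1 shRNA replicate 1, 2 or 3 and without control replicate 2. PSPH has a pseudogene, PSPHP1, and 2.28% of the 75-base stretches of the longest PSPH transcript occur in transcripts of other genes. PSPHP1 was listed higher than PSPH, at 64.3 ± 1.76 FPKM with HYOU1 shRNA and 93.2 ± 42.8 FPKM with control shRNA (SD, n = 3 each). These values are per length, and the lengths used were 261 bases for PSPHP1 and 2762 bases for PSPH. A higher FPKM of PSPHP1 therefore does not mean as many times more fragments. The PSPHP1 groups overlapped, and its bearing on the PSPH values was not tested.

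The make-up of the serine branch differed between the groups. PSAT1 held 26.4%, 23.3% and 24.9% of the summed FPKM of the 3 serine synthesis genes with HYOU1 shRNA, against 72.0%, 61.6% and 59.5% with control shRNA. FPKM is per length, so such shares can be formed within a library and do not depend on its scaling. The GC trend of control replicate 1 does not cancel in them, and that library held the highest PSAT1 share. PSAT1 stood at 0.433, 0.363 and 0.395 of the PHGDH level with HYOU1 shRNA and at 4.13, 2.23 and 2.03 times that level with control shRNA. The sum of the 3 genes was 58.4 ± 2.63 FPKM with HYOU1 shRNA and 111 ± 1.88 FPKM with control shRNA (SD, n = 3 each).

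**Figure D2:**
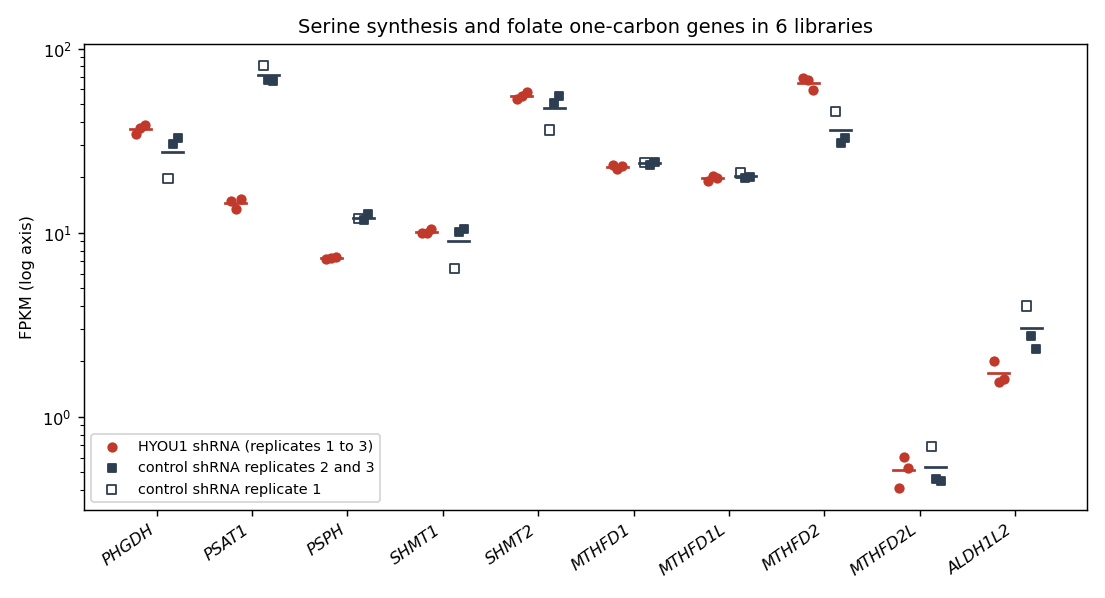
FPKM of each member in each library (vertical log axis), with HYOU1 shRNA libraries as circles left of the control libraries as squares, control replicate 1 open, and bars at the group means. PSAT1 and PSPH lie lower and MTHFD2 higher with HYOU1 shRNA, with no overlap, while the groups overlap for MTHFD1 and MTHFD1L.

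The serine hydroxymethyltransferases were not called in either compartment. SHMT2, the mitochondrial form (ENSG00000182199, chromosome 12, 57229327 to 57234935), was at 53.1, 54.9 and 58.0 FPKM with HYOU1 shRNA and at 36.2, 50.6 and 55.0 FPKM with control shRNA. The groups overlapped, and the low control value was that of replicate 1. SHMT1, the cytosolic form (ENSG00000176974, chromosome 17, 18327860 to 18363563), was at 9.92, 10.01 and 10.5 FPKM with HYOU1 shRNA and at 6.41, 10.1 and 10.5 FPKM with control shRNA. The log2 differences were 0.25 with a standard error of 0.17 for SHMT2 and 0.20 with a standard error of 0.20 for SHMT1. Without control replicate 1 they were 0.067 and -0.020, so the sign for SHMT1 rested on that library. After the GC correction they were 0.054 for SHMT2 and 0.13 for SHMT1, and neither was called. SHMT2 held 84.5% ± 0.232 of the summed SHMT level with HYOU1 shRNA and 84.1% ± 0.792 with control shRNA (SD, n = 3 each), and these shares overlapped.

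MTHFD2, the mitochondrial dehydrogenase and cyclohydrolase (ENSG00000065911, chromosome 2, 74198562 to 74217565), was at 69.3, 67.3 and 59.2 FPKM with HYOU1 shRNA and at 45.5, 30.5 and 32.6 FPKM with control shRNA. The groups did not overlap, and control replicate 1 lay nearest to the HYOU1 shRNA libraries. It averaged 65.3 ± 5.34 FPKM with HYOU1 shRNA and 36.2 ± 8.10 FPKM with control shRNA (SD, n = 3 each), a log2 difference of 0.87 with a standard error of 0.18. The GC correction gave 1.01, and leaving out control replicate 1 gave 1.04. The call was lost when any 1 library other than control replicate 1 was left out, with quantile normalization and without a filter on low values. Genes on the other strand, SLC4A5 and AC006030.1, overlap 33.2% of the exonic bases of MTHFD2, and were at a mean of at most 0.00928 FPKM. They also share 31.0% of the 75-base stretches of its longest transcript. Whether the counting used strand is not given.

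MTHFD2L, the second mitochondrial dehydrogenase and cyclohydrolase (ENSG00000163738, chromosome 4, 74114174 to 74303099), was the member under the limit of 1 FPKM. It was at 0.410, 0.604 and 0.530 FPKM with HYOU1 shRNA and at 0.692, 0.462 and 0.448 FPKM with control shRNA. These overlapping values rest on 72 to 116 fragments a library. With the limit lowered to 0.1 FPKM its log2 difference was -0.037 with a standard error of 0.29. MTHFD2 made up 99.2% ± 0.174 of the summed level of the pair with HYOU1 shRNA and 98.6% ± 0.0792 with control shRNA (SD, n = 3 each).

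MTHFD1L, which releases formate in mitochondria (ENSG00000120254, chromosome 6, 150865549 to 151101887), was at 19.1, 20.4 and 19.8 FPKM with HYOU1 shRNA and at 21.1, 19.7 and 20.1 FPKM with control shRNA. MTHFD1, the cytosolic trifunctional enzyme (ENSG00000100714, chromosome 14, 64388031 to 64463457), was at 23.4, 22.2 and 22.9 FPKM with HYOU1 shRNA and at 23.99, 23.3 and 24.1 FPKM with control shRNA. The groups overlapped for each of these genes. Their log2 differences were -0.039 for MTHFD1L and -0.060 for MTHFD1, with standard errors of 0.10 each. After the GC correction they were -0.095 and -0.020, and without control replicate 1 -0.011 and -0.054, with no call. Genes on the other strand, the highest at a mean of 3.25 FPKM, overlap 11.04% of the exonic bases of MTHFD1. MTHFD2 stood at 3.63, 3.31 and 3.00 times the MTHFD1L level with HYOU1 shRNA, against 2.15, 1.55 and 1.62 times with control shRNA.

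ALDH1L2, which draws formyl groups off to carbon dioxide (ENSG00000136010, chromosome 12, 105019784 to 105084577), was at 2.01, 1.55 and 1.61 FPKM with HYOU1 shRNA and at 4.001, 2.74 and 2.33 FPKM with control shRNA. The groups did not overlap, with the highest HYOU1 shRNA library close to control replicate 3. The log2 difference of -0.75 with a standard error of 0.24 was not called. After the GC correction it was -0.62 and without control replicate 1 it was -0.53, and it was called in both. The 5 mitochondrial genes together were at 143 ± 3.01 FPKM with HYOU1 shRNA and 107 ± 3.21 FPKM with control shRNA, and the 2 cytosolic folate genes at 32.9 ± 0.667 and 32.8 ± 2.13 FPKM (SD, n = 3 each). The mitochondrial share of the 7 folate genes was 81.2%, 81.8% and 80.7% with HYOU1 shRNA and 77.9%, 75.7% and 76.2% with control shRNA. Most of the difference in the mitochondrial sum lay in MTHFD2, at a mean of 65.3 FPKM with HYOU1 shRNA and 36.2 FPKM with control shRNA. SHMT2 averaged 55.3 and 47.3 FPKM, MTHFD1L 19.7 and 20.3 FPKM, and ALDH1L2 was lower. The sum and the share therefore do not describe the mitochondrial genes as a set.

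**Figure D3:**
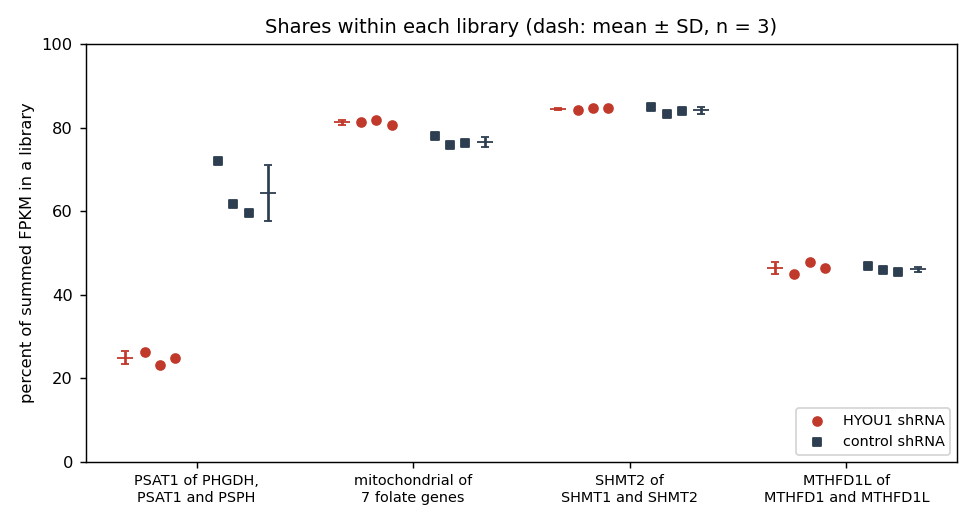
Share of summed FPKM within each library (vertical axis, percent) held by PSAT1, by the mitochondrial folate genes, by SHMT2 and by MTHFD1L, with HYOU1 shRNA left of control shRNA and the mean ± SD beside the points. The PSAT1 share is 23.3% to 26.4% against 59.5% to 72.0%, and the SHMT2 and MTHFD1L shares overlap.

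The order of the members by level differed between the groups. With HYOU1 shRNA it ran MTHFD2, SHMT2, PHGDH, MTHFD1, MTHFD1L, PSAT1, SHMT1, PSPH, ALDH1L2 and MTHFD2L, and no neighbours overlapped. With control shRNA PSAT1 came first, and SHMT2, MTHFD2, PHGDH and MTHFD1 followed with values of neighbours that overlapped. MTHFD1L, PSPH, SHMT1, ALDH1L2 and MTHFD2L came after them without overlap. PSAT1 thus stood in place 1 of 10 with control shRNA and in place 6 with HYOU1 shRNA.

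**Figure D4:**
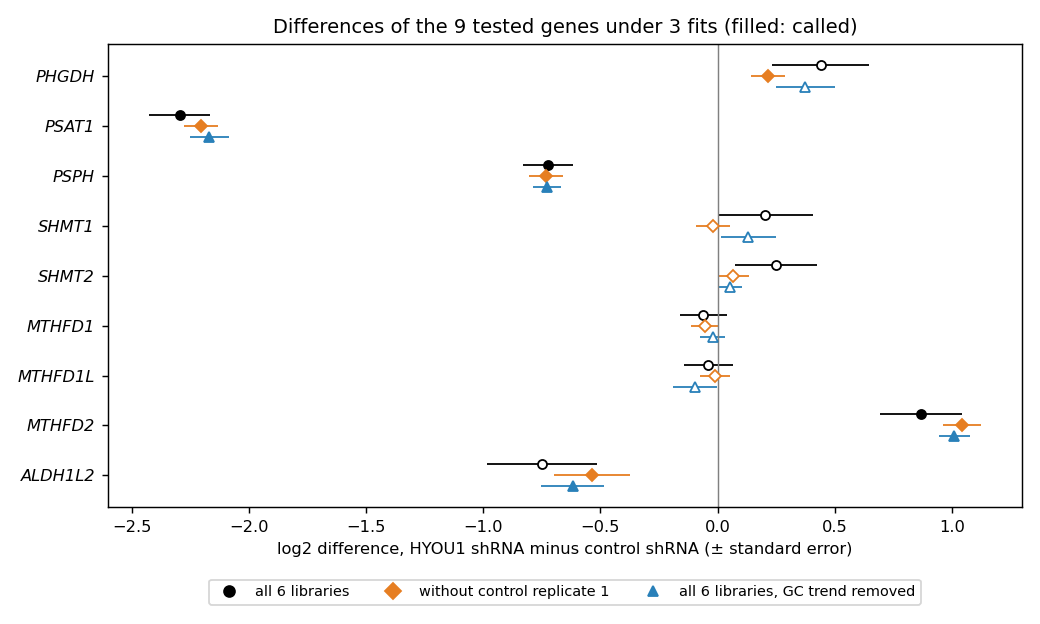
Log2 difference of each tested member, HYOU1 shRNA minus control shRNA, with its standard error, from all 6 libraries, with control replicate 1 left out, and with GC correction (filled symbols, called). PSAT1, PSPH and MTHFD2 are called in all 3 fits, and the differences of SHMT1 and SHMT2 move towards 0 without control replicate 1.

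With control replicate 1 left out, 5 of the 9 tested members were called, as PHGDH rose and ALDH1L2 fell beside the 3 above. The background was then 44.3% (24.6% higher and 19.7% lower). After the GC correction 4 were called, 1 higher and 3 lower, against a background of 40.6% (20.4% higher and 20.2% lower). The median log2 difference of the 9 members was -0.039, beside 0.035 for all tested genes.

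Genes around the pathway were taken from lists by function, drawn up with earlier results of these data known. Of all tested genes 12.3% were called in the fit of all libraries, 6.6% higher and 5.66% lower. The counts of called genes in these lists are not read against that share, because of how the lists were drawn up. Among genes of serine and glycine use, 1 of 11 tested rose, 0 fell and 10 did not pass, with a median of 0.053. GCAT, which makes glycine from a product of threonine breakdown, was at 7.61 ± 0.853 FPKM with HYOU1 shRNA and 4.62 ± 0.592 FPKM with control shRNA (SD, n = 3 each), a log2 difference of 0.71 (limma, adjusted p = 0.0328). After the GC correction its call was lost. GLDC and AMT, of the glycine cleavage system, were at no more than 0.159 FPKM in any library.

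Among folate transporters and other folate enzymes, 2 of 13 tested fell, 0 rose and 11 did not pass, with a median of -0.21. FOLR1, the folate receptor alpha, named after its value was seen, was the highest of the list at 1953 ± 103 FPKM with HYOU1 shRNA and 1741 ± 356 FPKM with control shRNA (SD, n = 3 each). SLC25A32, the mitochondrial folate carrier, was at a mean of 0.128 FPKM, and other genes overlap 80.8% of its exonic bases.

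Of 9 methionine cycle genes tested 0 were called by limma in the fit of all libraries, 0 had an unadjusted p under 0.05 and 0 were called by voom on recovered fragments, with a median of -0.072. Without control replicate 1, 1 rose and 1 fell, in a fit that called 44.3% of all tested genes. AHCY, which clears S-adenosylhomocysteine and had the highest mean of the list, was at 84.5 ± 5.50 FPKM with HYOU1 shRNA and 69.0 ± 11.8 FPKM with control shRNA (SD, n = 3 each), a difference of 0.31 (limma, adjusted p = 0.226).

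Purine synthesis takes up formyl groups from folate in some of its steps. Of its genes, 1 of 11 tested rose, 0 fell and 10 did not pass, with a median of 0.15. PRPS1, which makes phosphoribosyl pyrophosphate, was at 57.6 ± 2.03 FPKM with HYOU1 shRNA and 42.3 ± 2.52 FPKM with control shRNA (SD, n = 3 each), a difference of 0.45 (limma, adjusted p = 0.0407). Without control replicate 1, 6 rose and 1 fell, in a fit that called 44.3% of all tested genes (24.6% higher and 19.7% lower).

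Among known ATF4 targets outside the pathway, 6 of 26 tested fell, 1 rose and 19 did not pass, with a median of -0.16. SLC7A11, the cystine transporter, differed by -1.90 (limma, adjusted p = 0.00931), CTH, which makes cysteine, by -1.13 (limma, adjusted p = 0.00554) and XPOT, a tRNA exporter, by -1.03 (limma, adjusted p = 0.0247). ATF3, named after its value was seen, was the one that rose, by 0.62 (limma, adjusted p = 0.0296). PSAT1 and PSPH had the sign of the 6 that fell and MTHFD2 that of ATF3, while most genes of the list were not called. Whether ATF4 had a part in the differences of the members was not tested. ASNS, asparagine synthetase, was not tested, at a mean of 0.369 FPKM, and another gene on the same strand, AC079781.5, overlaps 44.6% of its exonic bases. Without control replicate 1, 13 fell and 2 rose, in a fit that called 44.3% of all tested genes (24.6% higher and 19.7% lower).

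Of 6 transcriptional regulators of the pathway, 1 rose, 1 fell and 4 did not pass. MYC was at 218, 213 and 215 FPKM with HYOU1 shRNA and at 98.4, 142 and 150 FPKM with control shRNA, a difference of 0.75 (limma, adjusted p = 0.0399). KDM4C, a histone demethylase, differed by -0.76 (limma, adjusted p = 0.0252). ATF4 was at 64.3, 69.0 and 68.8 FPKM with HYOU1 shRNA and at 70.0, 83.2 and 86.9 FPKM with control shRNA, without overlap. Its difference of -0.24 did not pass (limma, adjusted p = 0.221), but it did without control replicate 1, at -0.34 (limma, adjusted p = 0.00288). These are transcript levels, and ATF4 is known to be controlled largely in translation. Every called gene of these lists lost its call when HYOU1 shRNA replicate 1, 2 or 3 was left out, apart from CTH, which kept it without replicate 2.

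**Figure D5:**
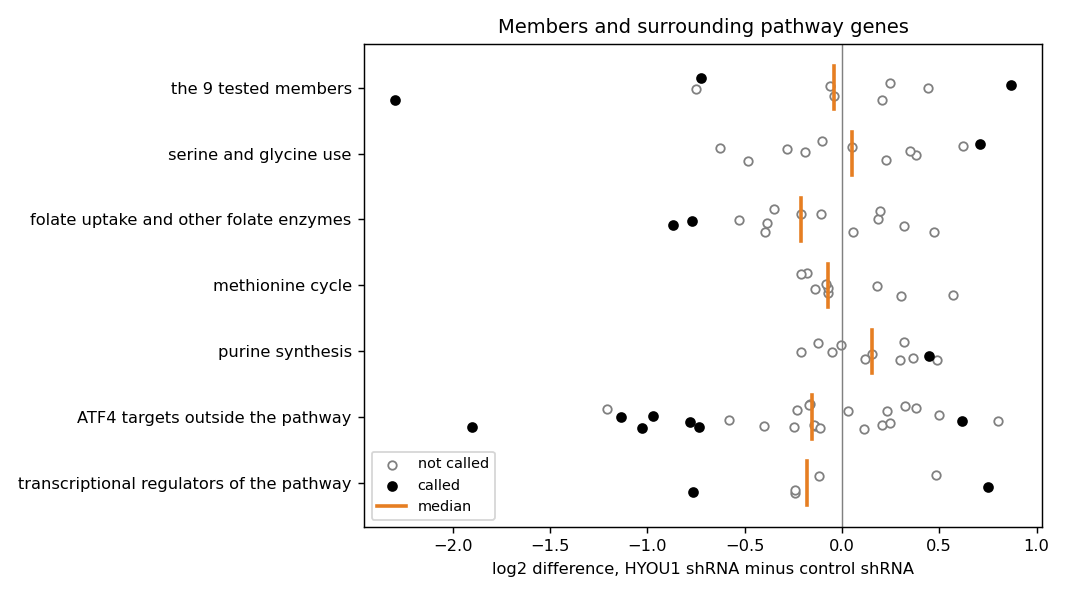
Log2 difference of each tested gene, HYOU1 shRNA minus control shRNA (horizontal axis), for the 9 tested members and 6 lists of surrounding genes (filled, called; bar, median; vertical scatter has no meaning). The members spread from -2.30 to 0.87, and 6 of the 7 called ATF4 targets lie below 0.

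The genes most like PSAT1 over the 6 libraries were picked by the smallest root mean square difference of centred log2 values among protein-coding genes. They were DKK1, a secreted WNT antagonist (0.096), C4BPA, a regulator of complement (0.13), TSHZ2 (0.14), ARSB, a lysosomal sulfatase (0.16) and FSTL4 (0.16). DKK1 was at 8.43, 8.29 and 9.43 FPKM with HYOU1 shRNA and at 52.3, 36.4 and 36.6 FPKM with control shRNA. It shared with PSAT1 the higher value in control replicate 1. The genes most like MTHFD2 were LYAR, a nucleolar protein (0.060), MLF1 (0.063), ARFGAP3, of Golgi transport (0.065), INSIG1, which retains the sterol sensor in the endoplasmic reticulum (0.065), and MYBL1 (0.065). LYAR was at 16.5, 16.99 and 15.9 FPKM with HYOU1 shRNA and at 11.2, 8.12 and 8.34 FPKM with control shRNA. These lists describe likeness over 6 libraries in 2 groups and were chosen for it.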

How the data were processed

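RNA was sequenced from 6 libraries, 3 with HYOU1 shRNA and 3 with control shRNA. Per the labels' protocols, mRNA was pulled down on oligo(dT) beads and fragmented, and cDNA was primed at random. Which aligner and counting tool were run, and whether strand was used, is not stated in those labels. The authors deposited FPKM values for 58735 genes, whose identifiers and coordinates all match GENCODE 29 on GRCh38. FPKM times gene length came in whole steps (tolerance 0.01), which gave 16893091 to 18233240 fragments a library, and the scaled totals equalled median-of-ratios factors. A floor of 3 fragments was worth 0.160 to 0.176 FPKM at 1 kb and covers counting error only.

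Values were tested as log2(FPKM + 0.1) in the 12448 genes whose mean reached 1 FPKM, with limma 3.58.1 in R 4.3.3 (variance trend, robust priors, Benjamini-Hochberg adjustment, threshold 0.05). Fold changes on this scale understate those of weak genes. The members and lists were chosen with earlier results of these data known. Named were the members, HYOU1, ATF4, the 3 called genes with the largest difference of each list (or the highest gene), and the 5 genes most like PSAT1 and MTHFD2. Values of some genes that this rule names among the folate transporters and other folate enzymes are not reported here. The GC correction removed a lowess trend (span 0.3) of each library over transcript GC content, and also removes any real difference that follows GC. Every alternative was planned except the GC correction without control replicate 1. Replicates of a group differed by more than sampling noise, so none was merged. Promoters are RefSeq windows.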

Additional observations from a re-analysis of the deposited data

How the results depend on the processing

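Limma called 1526 genes and 3 members with all libraries. Leaving out 1 library gave 49 to 5518 genes and 1 to 5 members, with the highest of both without control replicate 1. PSAT1 was the 1 member called without HYOU1 shRNA replicate 1, 2 or 3 or control replicate 2. The count of genes was 938 with a filter of 5 FPKM, 770 without a filter, 5048 after the GC correction, and 6049 with that correction and without control replicate 1, where 5 members were called. Deviations from group means correlated at 0.12, -0.093 and 0.17 between libraries of the same replicate number. With 3 libraries a group and the GC trend of control replicate 1, these values cannot settle whether replicate numbers pair the libraries. With the replicate block 940 genes were called, and with the block and the GC correction 4504, with 5 members. The sign turned for SHMT1 without control replicate 1 (-0.020; its range without 1 library was -0.020 to 0.33) and with the GC correction besides (-0.0063). In that last fit the sign of MTHFD1L also turned (0.0053). No other member changed sign in any fit, and the cause was not tested. MTHFD2L rests on the fewest fragments, 72 to 116 a library. The replicate block left the members called at 3.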
